A study of Mus musculus with 2 samples.

Results

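A set of 65 genes stood at 2 FPKM or more in expanding mouse erythroblasts and under 0.5 FPKM after 1 day of maturation. FPKM is the number of sequenced fragments scaled by transcript length and by library size, so levels of different genes can be compared per length. The set was chosen on these same values from the 25791 gene rows of the deposited table. Rows for microRNAs, snoRNAs and other short RNAs, histone genes, LOC symbols and Lars2 were left out by name, which kept 23249 rows. Of these, 6724 rows had at least 2 FPKM in expansion, and the 65 genes were 0.967% of them. Because both values chose the genes, their levels and folds below are a description, and nothing is read from the size of the difference.

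The maturation group held ESREs 1 day into maturation; ESRE stands for Extensively Self Renewing Erythroblast, a cultured precursor of red cells that divides without yet maturing. The expansion group held the same kind of cells while proliferating. Both groups were labelled as C57/bl6 in genetic background. The title of the series names beta-YAC transgenic mice, and the labels do not say whether these samples carried the transgene. The series text speaks of biological duplicates. Only 1 FPKM value is deposited for a gene in each group, so no difference has a replicate check, an SD or a p-value. The sequencing depth is unknown, since the table gives neither counts nor transcript lengths. Summed over all rows, FPKM was 416690 in maturation and 411084 in expansion. The erythroid label was borne out by its markers, as 19 of 20 erythroid identity genes reached 1 FPKM in a group. Higher and lower by at least 2-fold are counted here on the log2(FPKM + 1) scale, among rows with at least 1 FPKM in a group. By that measure 12 of the 19 erythroid genes were higher in maturation and 0 lower, where 3.13% of all 9263 such rows were higher and 6.7% lower.

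Self-renewing erythroblasts depend on growth factor signals, among them stem cell factor acting through the KIT receptor and erythropoietin acting through its receptor. Such receptors activate RAS, the ERK kinases and phosphoinositide 3-kinase, and ERK induces immediate early genes and its own feedback inhibitors. Early erythroid precursors share ancestors with megakaryocytes, mast cells and basophils, and some genes of those lineages are known to be transcribed in immature erythroid cells. During maturation the cells withdraw from growth factor dependence, fill with hemoglobin and condense their nuclei.

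"Silenced", the working name of the set, means no more here than under 0.5 FPKM in maturation. Of the 65 genes, 0 were listed at 0 FPKM in maturation, but genes absent from the cells can also be listed above 0. Their maturation values ran from 0.00594 to 0.499 FPKM with a median of 0.315, and their expansion values from 2.03 to 12.5 FPKM with a median of 3.24. Most genes lay near both limits: 42 of 65 were at 0.25 FPKM or more in maturation, and 56 of 65 were under 5 FPKM in expansion. A deeper group of 13 genes was under 0.1 FPKM in maturation. For scale, the 19 lymphocyte markers other than Gzmb, which an erythroid culture should lack, ranged from 0 to 0.183 FPKM in maturation and from 0 to 0.273 FPKM in expansion. Of the 65 genes, 17 were at or below 0.183 FPKM in maturation, and the others stood above the highest of those markers. In such bulk values, fewer cells of a type and less RNA per cell cannot be told apart.

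**Figure D1:**
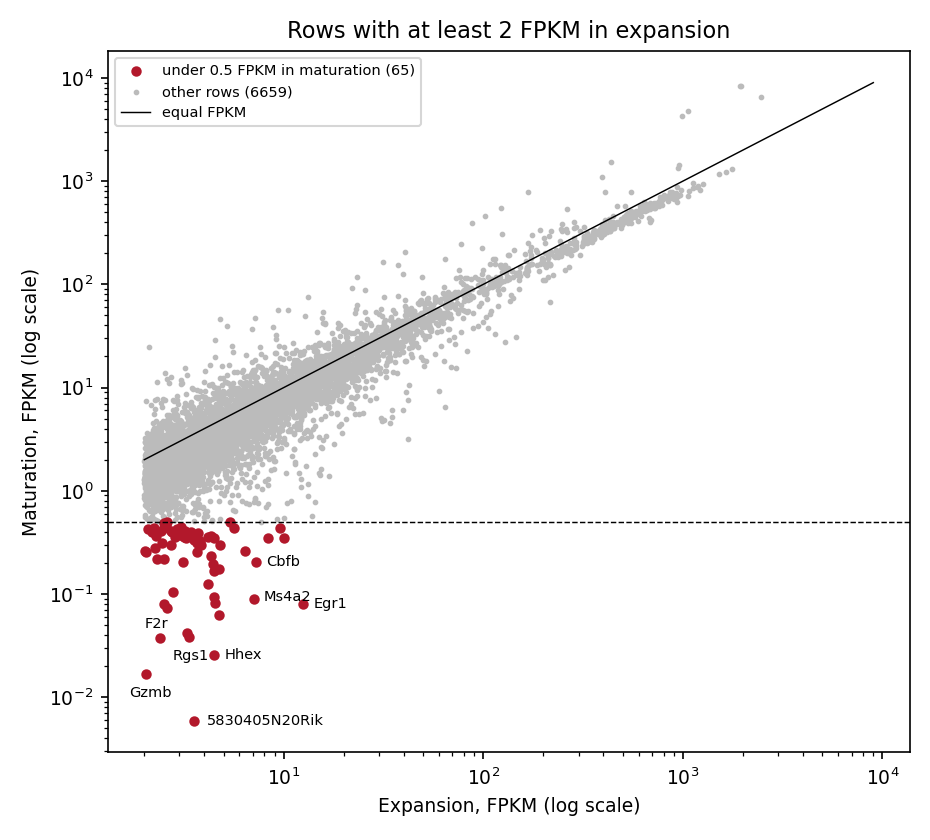
Maturation FPKM (vertical, log scale) against expansion FPKM (horizontal, log scale) for every row with at least 2 FPKM in expansion that was not left out by name, 1 point per row. The 65 genes (red) lie under the dashed line at 0.5 FPKM and between 2.03 and 12.5 FPKM in expansion, and the 6659 other rows (grey) spread around the line of equal FPKM.

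The ratio of expansion to maturation ran from 4.95 in Fhl3 to 599 in 5830405N20Rik, with a median of 11.7. It was at least 10 in 38 genes, at least 20 in 23, at least 50 in 10 and at least 100 in 4. On the log2(FPKM + 1) scale the median log2 ratio of maturation over expansion was -1.77, against -0.25 for the 6659 other rows. High ratios rest on maturation values close to 0, and a pseudocount of 0.1 moved the median to -3.21 and one of 5 to -0.64. Weakly expressed genes supplied most of the set, since a level of 2 FPKM needs a smaller ratio to pass 0.5. The genes were 1.96% of rows at 2 to 3 FPKM in expansion and 1.89% of those at 3 to 5. They were 0.426% of rows at 5 to 10 FPKM, 0.207% at 10 to 20 and 0% of the 1199 rows at 20 FPKM or more.

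Just inside the maturation limit were Pank1 at 0.499 FPKM, Sla at 0.495 and Gramd1a at 0.483, and just outside it were P2rx4 at 0.504, Fam46a at 0.509 and Rec8 at 0.511. Just inside the expansion limit were Myadm at 2.03 FPKM, Rasa3 at 2.04 and Gzmb at 2.05, and just outside it were Gnpnat1 at 1.99 and Rnd2 and Plscr2, both at 1.97. The limits therefore divide a continuous range of values.

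Nuclear factors gave 9 of the 65 genes, with a median ratio of 12.95. Egr1, a zinc finger factor of the immediate early class induced by growth factors (chromosome 18, mm9 35020861 to 35024610), was at 0.0804 FPKM in maturation and 12.5 in expansion, the highest expansion value of the set and 155-fold lower in maturation. Hhex, a homeobox factor of early blood and liver development (chromosome 19, 37509331 to 37515221), was at 0.0255 FPKM in maturation and 4.46 in expansion, a ratio of 175. Cbfb encodes the partner subunit that RUNX factors need for stable DNA binding. It was at 0.205 FPKM in maturation and 7.25 in expansion. Its partner genes stayed measurable, as Runx1 was at 3.07 FPKM in maturation and 4.44 in expansion, and Runx3 at 1.05 and 2.37. Cbfb was thus 35.4-fold lower while Runx1 was 1.45-fold and Runx3 2.26-fold lower.

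Fosl1, a FOS family partner of JUN proteins in AP-1, was at 0.299 FPKM in maturation and 2.72 in expansion. It was the only FOS family gene with 1 FPKM or more in a group. Tgif1, a homeobox repressor that restrains TGF-beta signalling, was at 0.296 FPKM in maturation and 3.83 in expansion. Tcfcp2 encodes CP2, a factor first described as a binder of the alpha globin promoter, and was at 0.393 FPKM in maturation and 3.74 in expansion. The remaining nuclear proteins were Trnp1, a chromatin-associated protein known from neural progenitors, at 0.0825 and 4.51 FPKM in maturation and expansion, Ripply3, a corepressor, at 0.408 and 2.72, and the LIM domain cofactor Fhl3 at 0.424 and 2.10.

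Zfp36 encodes tristetraprolin, an RNA-binding protein that promotes the decay of AU-rich mRNAs and is itself an immediate early gene. It was at 0.432 FPKM in maturation and 2.52 in expansion (chromosome 7, 29161803 to 29164247). Its relative Zfp36l2 was at 6.54 FPKM in maturation and 64.1 in expansion, a larger ratio from a much higher level, so Zfp36l2 did not enter the set. Zfp36l1 was at 2.36 FPKM in maturation and 5.83 in expansion. Cugbp2, which RefSeq names Celf2 and which encodes a splicing and RNA stability factor, was at 0.438 FPKM in maturation and 2.25 in expansion, while its relative Cugbp1 was at 5.40 and 5.37.

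Sequences upstream of 4 genes are shown because the set was compared with other genes for promoter motifs, and these 4 carry the motifs discussed further on. Each is the 250 bases before the RefSeq start site on GRCm38.p6, read 5′ to 3′ on the strand of the gene. Capitals mark the motif, AGATAA or its reverse complement (the GATA factor core) in Ms4a2 and Gp5, GAGGAAGT or its reverse complement (an ETS and PU.1 type site) in Spred2, and the CArG box of serum response factor in Zfp36. The regions are chr19:11623720-11623969 on the minus strand for Ms4a2, chr16:30310782-30311031 on the minus strand for Gp5, chr11:19924192-19924441 on the plus strand for Spred2 and chr7:28379229-28379478 on the minus strand for Zfp36.
Ms4a2: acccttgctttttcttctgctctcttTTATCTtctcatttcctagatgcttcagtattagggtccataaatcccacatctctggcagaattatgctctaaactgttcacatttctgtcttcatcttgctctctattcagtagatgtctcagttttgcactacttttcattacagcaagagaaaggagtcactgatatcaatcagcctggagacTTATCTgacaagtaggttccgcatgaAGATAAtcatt
Gp5: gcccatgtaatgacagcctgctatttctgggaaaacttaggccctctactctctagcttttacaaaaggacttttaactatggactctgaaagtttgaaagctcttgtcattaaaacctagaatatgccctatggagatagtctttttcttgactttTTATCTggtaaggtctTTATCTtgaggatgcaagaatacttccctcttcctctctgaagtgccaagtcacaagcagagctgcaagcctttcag
Spred2: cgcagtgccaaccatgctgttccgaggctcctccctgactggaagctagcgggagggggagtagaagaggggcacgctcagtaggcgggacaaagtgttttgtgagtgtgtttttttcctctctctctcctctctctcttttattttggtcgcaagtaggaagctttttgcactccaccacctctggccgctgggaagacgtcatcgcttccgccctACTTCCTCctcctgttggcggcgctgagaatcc
Zfp36: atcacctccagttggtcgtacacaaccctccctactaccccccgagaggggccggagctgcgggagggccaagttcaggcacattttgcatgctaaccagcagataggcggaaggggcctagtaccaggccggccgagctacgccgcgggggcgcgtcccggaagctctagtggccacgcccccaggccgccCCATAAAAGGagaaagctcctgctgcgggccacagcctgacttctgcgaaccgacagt
Ms4a2 holds 3 such matches and Gp5 holds 2. The match in Spred2 begins 33 bases and that in Zfp36 58 bases before the start site.

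Receptors and surface proteins gave 12 genes, with a median ratio of 23.3. Ms4a2, the beta subunit of the high-affinity IgE receptor of mast cells and basophils (chromosome 19, mm9 11691683 to 11698133), was at 0.0903 FPKM in maturation and 7.07 in expansion. Fcer1a, the IgE-binding subunit of that receptor, was at 0.605 FPKM in maturation and 4.01 in expansion, and the third gene of the complex, Fcer1g, was near 0 in both groups, at 0.0801 and 0.104. Gp5, a subunit of the platelet receptor for von Willebrand factor (chromosome 16, 30307779 to 30310865), was at 0.438 FPKM in maturation and 9.63 in expansion. Within the same receptor Gp1ba was at 0.845 and 7.22 FPKM, Gp9 at 1.84 and 0.756, and Gp1bb near 0 in both groups. Each of these receptors thus had 1 subunit gene near 0 in expansion.

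F2r, the thrombin receptor PAR1, was at 0.0371 FPKM in maturation and 2.39 in expansion, and no other receptor gene of that family reached 1 FPKM. Tarm1, an activating receptor of myeloid cells, was at 0.0622 FPKM in maturation and 4.71 in expansion. Cd69, an early activation antigen of leukocytes, was at 0.103 FPKM in maturation and 2.80 in expansion. All 3 are known from activated blood cells, and their ratios were 64.4 for F2r, 75.8 for Tarm1 and 27.0 for Cd69. Ifngr1, the ligand-binding chain of the interferon gamma receptor, was at 0.395 FPKM in maturation and 3.42 in expansion, and its partner chain Ifngr2 at 0.521 and 2.30, so both chains were lower and Ifngr2 missed the limit by a small margin. Cnr2, the cannabinoid receptor of blood cells, was at 0.219 FPKM in maturation and 2.31 in expansion. Perp, a membrane protein of desmosomes and a p53 target, was at 0.260 and 6.39 FPKM, and Parm1, a mucin-like protein, at 0.0417 and 3.28. Igsf8, a tetraspanin partner, was at 0.399 FPKM in maturation and 3.10 in expansion, Myadm, a membrane raft protein, at 0.258 and 2.03, and the polycystin family gene Pkd1l3 at 0.323 and 3.82. The Pkd1l3 row shares its locus with 2400003C14Rik, at 4.13 FPKM in maturation and 7.09 in expansion, so reads may be divided between them.

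Several of the 65 genes are markers of other blood lineages, and the whole marker lists were looked up beside them. Of 18 mast cell and basophil markers with a row, 5 reached 1 FPKM in a group and all 5 were at least 2-fold lower, where 6.7% of all expressed rows were. Ms4a2 and Hdc were so by the choice of the set, and the others were Fcer1a, Il1rl1 and Alox5. The summed level of the 18 markers was 22.0 FPKM in maturation and 66.5 in expansion. Alox5 alone gave most of both sums, at 18.0 FPKM in maturation and 40.7 in expansion. The listed granule proteases of mature mast cells and basophils were all under 1 FPKM in both groups and did not share a direction. Mcpt8 was listed at 0 in both groups, and Cpa3 was at 0 FPKM in maturation and 0.107 in expansion. Tpsb2 was at 0.0101 FPKM in maturation and 0.0138 in expansion, and Prss34 at 0.00878 and 0.0127. Mcpt4 was higher in maturation, at 0.715 FPKM against 0.00971 in expansion, and Cma1 was at 0.288 and 0.192. Outside the list the protease gene Mcpt2, the nearest expressed row to Gzmb, was also higher, at 1.30 FPKM in maturation and 0.0406 in expansion. Of 22 megakaryocyte and platelet markers, 8 were expressed and 6 of them, Gp5 by choice, at least 2-fold lower, against the same 6.7%, with summed levels of 25.2 FPKM in maturation and 53.96 in expansion. Most of the sum in maturation was Tubb1, which was not among the 6, at 18.3 FPKM in maturation and 13.1 in expansion. Plek, among the 6, was at 2.57 and 15.6 FPKM. Pf4, a platelet granule chemokine, was listed at 0 in maturation and at 0.0333 FPKM in expansion. The platelet chemokine gene Ppbp was under 0.01 FPKM in both groups. None of the other lymphocyte markers accompanied Gzmb to 1 FPKM, and the 20 markers summed to 0.469 FPKM in maturation and 2.58 in expansion. Macrophage and granulocyte markers summed to 0.713 and 1.93 FPKM in maturation and to 1.74 and 2.28 in expansion, and only 1 marker of each list reached 1 FPKM in a group. The part of admixed cells in the levels of the 65 genes was not tested.

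Signalling proteins gave 15 genes, with a median ratio of 11.4, and several act on RAS or on receptors coupled to G proteins. Dok2, an adaptor that recruits RAS GTPase activating protein below cytokine receptors (chromosome 14, 71174188 to 71178301), was at 0.125 FPKM in maturation and 4.15 in expansion. Its relative Dok1 was at nearly the same expansion level and was not lower, at 4.80 FPKM in maturation and 4.02 in expansion. Spred2, an inhibitor of the RAS to ERK pathway (chromosome 11, 19824445 to 19922600), was at 0.370 FPKM in maturation and 3.03 in expansion, and Spred1 at 0.669 and 3.03. The Spred genes had the same level in expansion and lay on both sides of the limit in maturation. Rasa3, a RAS and RAP GTPase activating protein whose mutation causes anemia in the scat mouse, was at 0.254 FPKM in maturation and 2.04 in expansion. Rasa1 was at 0.787 and 1.76 FPKM and Rasa2 at 0.619 and 2.22. All 3 expressed RASA genes were lower in maturation, and Rasa3 had the highest ratio of them at 8.01.

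Regulators of G protein signalling split in direction. Rgs19 was at 0.349 FPKM in maturation and 8.38 in expansion, Rgs18 at 0.438 and 5.64, and Rgs1 at 0.0382 and 3.35. Rgs10 was at 13.5 FPKM in maturation and 6.88 in expansion, and Rgs12 at 10.6 and 4.23. Over all 21 RGS rows looked up the summed FPKM was 25.5 in maturation and 30.3 in expansion, and Rgs10 and Rgs12 supplied most of it in maturation.

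Pik3cg, the gamma catalytic subunit of class I phosphoinositide 3-kinase, was at 0.400 FPKM in maturation and 2.29 in expansion. The delta subunit gene Pik3cd was also lower, at 0.634 and 5.73 FPKM. The broadly expressed subunit genes differed from these and from each other, with Pik3ca slightly lower at 0.738 FPKM in maturation and 1.02 in expansion, and Pik3cb higher at 2.49 and 0.953. Arap3, a phosphoinositide-regulated GTPase activating protein, was at 0.346 FPKM in maturation and 4.49 in expansion, and Plekha2, which binds a phosphoinositide product of that kinase, at 0.444 and 3.07. The receptor-type tyrosine phosphatase Ptpre was at 0.353 FPKM in maturation and 3.18 in expansion, against 3.49 and 3.62 for its close relative Ptpra. Sla, a SRC-like adaptor that restrains antigen receptor signalling, was at 0.495 FPKM in maturation and 5.38 in expansion. The row of Sla shares its locus with Tg, which was near 0 in both groups.

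Dock10 and Syde2, regulators of small GTPases, were at 0.311 and 0.220 FPKM in maturation and at 2.44 and 2.51 in expansion. Dock2 and Dock8, the leading DOCK genes, were at 5.22 and 2.04 FPKM in maturation and at 11.4 and 4.58 in expansion. Tnfaip8, a regulator of cell survival, was at 0.203 FPKM in maturation and 3.12 in expansion. The LOC100503858 row on the same locus as Tnfaip8 had a like pair of values, 0.329 and 6.42 FPKM. The lowest maturation value of the set belonged to 5830405N20Rik, at 0.00594 FPKM, against 3.56 in expansion (chromosome 10, 129759908 to 129799698). RefSeq gives this row the name Tespa1, an adaptor known from T cell receptor signalling in thymocytes.

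**Figure D2:**
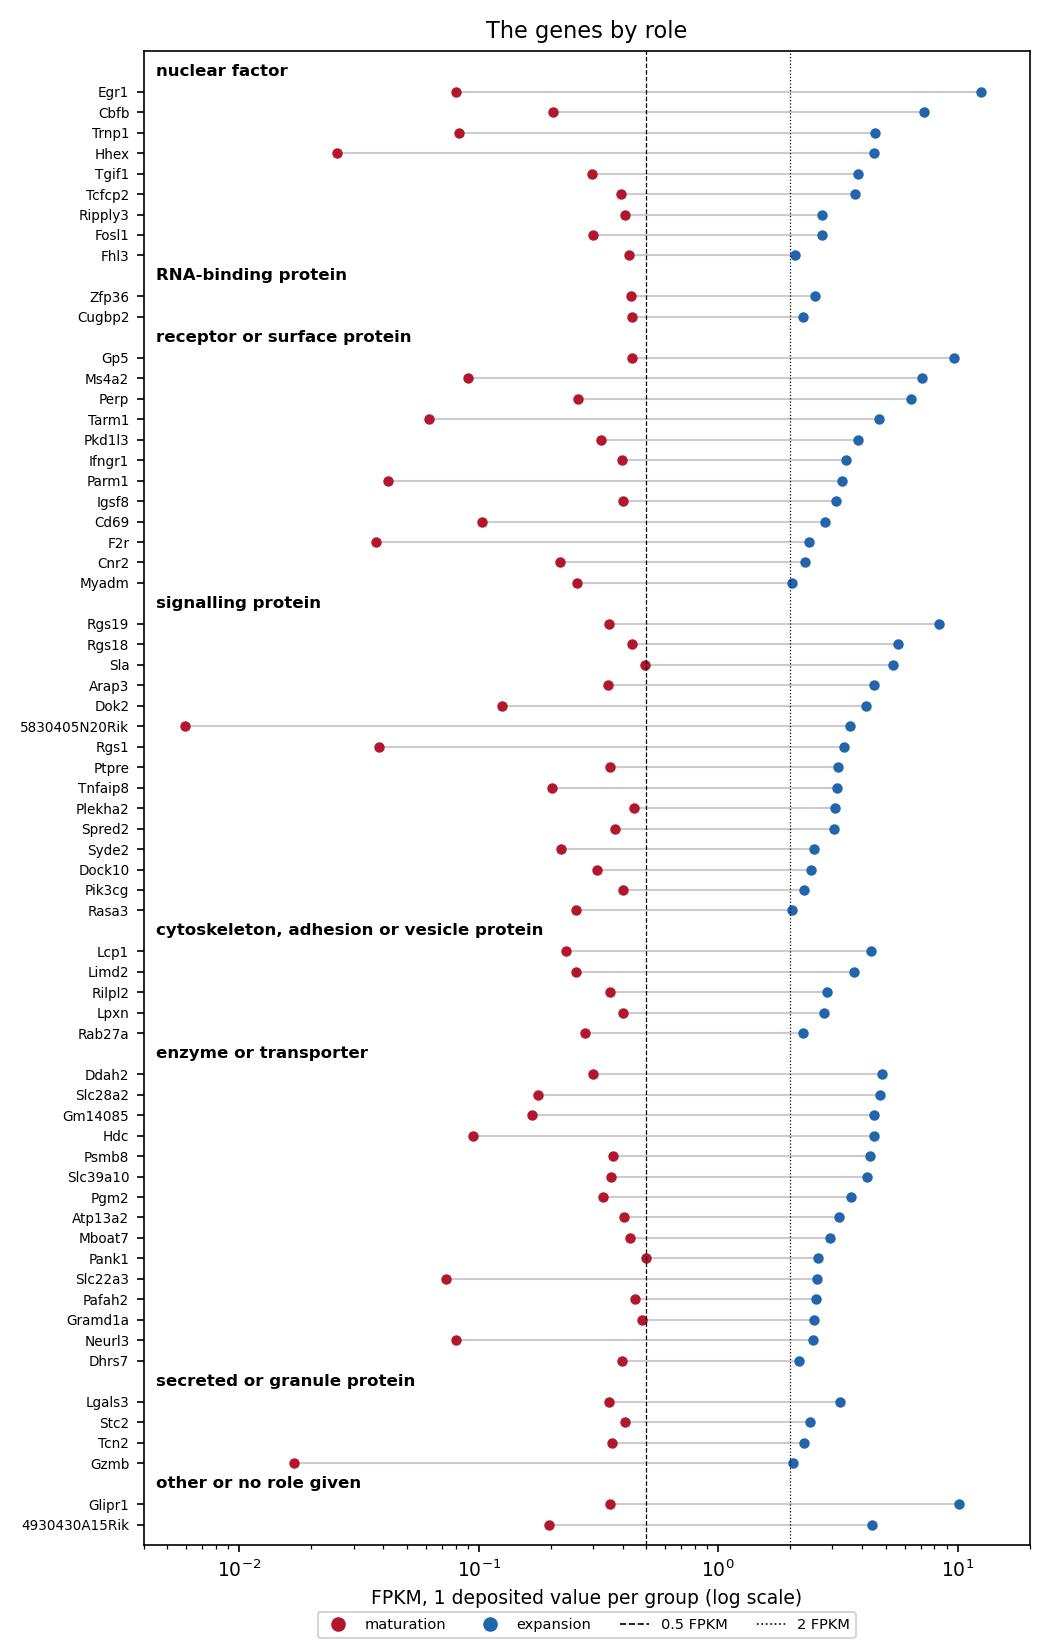
FPKM (horizontal, log scale) of the chosen genes, 1 of the 65 not shown, grouped by role, with maturation in red and expansion in blue, 1 deposited value per group and no error. All red points lie left of the dashed line at 0.5 FPKM and all blue points right of the dotted line at 2 FPKM, as the choice of genes requires, and the red points spread from 0.00594 to 0.499 FPKM.

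Proteins of the cytoskeleton, adhesion and vesicles gave 5 genes, with a median ratio of 8.15. Lcp1, the leukocyte actin-bundling protein L-plastin, was at 0.232 FPKM in maturation and 4.33 in expansion, and no other plastin gene reached 1 FPKM. Rab27a, a GTPase of granule secretion, was at 0.277 FPKM in maturation and 2.26 in expansion, and its relative Rab27b was lower as well, at 0.0271 and 1.11. Lpxn, the focal adhesion protein leupaxin, was at 0.402 FPKM in maturation and 2.76 in expansion, Limd2, a LIM domain protein, at 0.255 and 3.69, and Rilpl2, a protein of Rab-dependent transport, at 0.355 and 2.84.

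Enzymes and transporters gave 15 genes, with a median ratio of 11.7. Hdc, histidine decarboxylase, which makes histamine in mast cells and basophils (chromosome 2, 126419404 to 126444401), was at 0.0945 FPKM in maturation and 4.47 in expansion. Psmb8, a catalytic subunit of the immunoproteasome, was at 0.362 FPKM in maturation and 4.31 in expansion, and its immunoproteasome partners Psmb9 and Psmb10 were at 0.584 and 3.46 FPKM in maturation and at 2.01 and 6.91 in expansion. The constitutive counterparts stayed high, as Psmb5 was at 25.1 FPKM in maturation and 33.0 in expansion, Psmb6 at 20.7 and 18.3, and Psmb7 at 38.9 and 32.5. Slc39a10, the zinc importer ZIP10, was at 0.357 FPKM in maturation and 4.19 in expansion. Slc28a2, a concentrative nucleoside transporter, was at 0.176 FPKM in maturation and 4.73 in expansion. The neighbouring row Gm14085, which RefSeq names Slc28a2b, was at 0.167 and 4.48. Such similar copies can share reads, so these 2 rows may not be independent.

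Slc22a3, an organic cation transporter that carries monoamines such as histamine, was at 0.0731 FPKM in maturation and 2.59 in expansion. Atp13a2, a lysosomal transporter of polyamines, was at 0.406 FPKM in maturation and 3.21 in expansion. Pgm2, the row of the phosphoglucomutase that RefSeq now names Pgm1, was at 0.330 FPKM in maturation and 3.57 in expansion, and the row Pgm1 at 2.25 and 6.80. Pank1 was the lowest of 4 pantothenate kinase genes in maturation, at 0.499 FPKM, against 2.61 in expansion. Pank2 was at 2.48 and 3.23 FPKM in maturation and expansion, Pank3 at 1.36 and 2.31, and Pank4 at 3.97 and 3.03. Lipid enzymes were Mboat7, an acyltransferase of phosphatidylinositol, at 0.430 FPKM in maturation and 2.93 in expansion, and Pafah2, a hydrolase of platelet activating factor, at 0.451 and 2.56. Gramd1a, a sterol transfer protein, was at 0.483 and 2.51 FPKM. Ddah2, an enzyme family member of methylarginine breakdown, was at 0.300 FPKM in maturation and 4.81 in expansion, Neurl3, a ubiquitin ligase, at 0.0805 and 2.497, and the short-chain dehydrogenase Dhrs7 at 0.396 and 2.18.

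Secreted or granule proteins gave 5 genes. Gzmb, the cytotoxic granule protease granzyme B (chromosome 14, 56877693 to 56881097), was at 0.0169 FPKM in maturation and 2.05 in expansion. Lgals3, galectin 3, was at 0.349 FPKM in maturation and 3.24 in expansion, and the more abundant Lgals9 was at 9.21 and 60.0. Stc2, a stanniocalcin, was at 0.409 FPKM in maturation and 2.42 in expansion, and Tcn2, the vitamin B12 carrier transcobalamin, at 0.361 and 2.29. Outside these roles were Glipr1, a CAP family protein, at 0.352 FPKM in maturation and 10.1 in expansion, and 4930430A15Rik, which RefSeq names A26c3, at 0.197 and 4.40. Glipr1 shares its locus with Krr1, at 2.36 FPKM in maturation and 3.64 in expansion. In all, 10 of the 65 rows (15.4%) had the same locus as another row, against 21.1% of the other rows.

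Relatives of these genes were lower by 2-fold more often than rows in general, and many remained measurable in maturation. Of the 65 genes, 25 were placed in 23 families or complexes, a grouping made after the values were seen. These families held 40 other genes with at least 1 FPKM in a group, of which 12 were lower by at least 2-fold, Rgs12 was higher and 27 lay within 2-fold on the same scale. Of all 9263 expressed rows 6.7% were lower and 3.13% higher by that measure. The median log2 ratio was -0.69 for the relatives and -0.25 for all expressed rows, with no test of the difference. In maturation 25 of the 40 relatives stood at 1 FPKM or more, and 13 of the 23 families had such a relative.

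**Figure D3:**
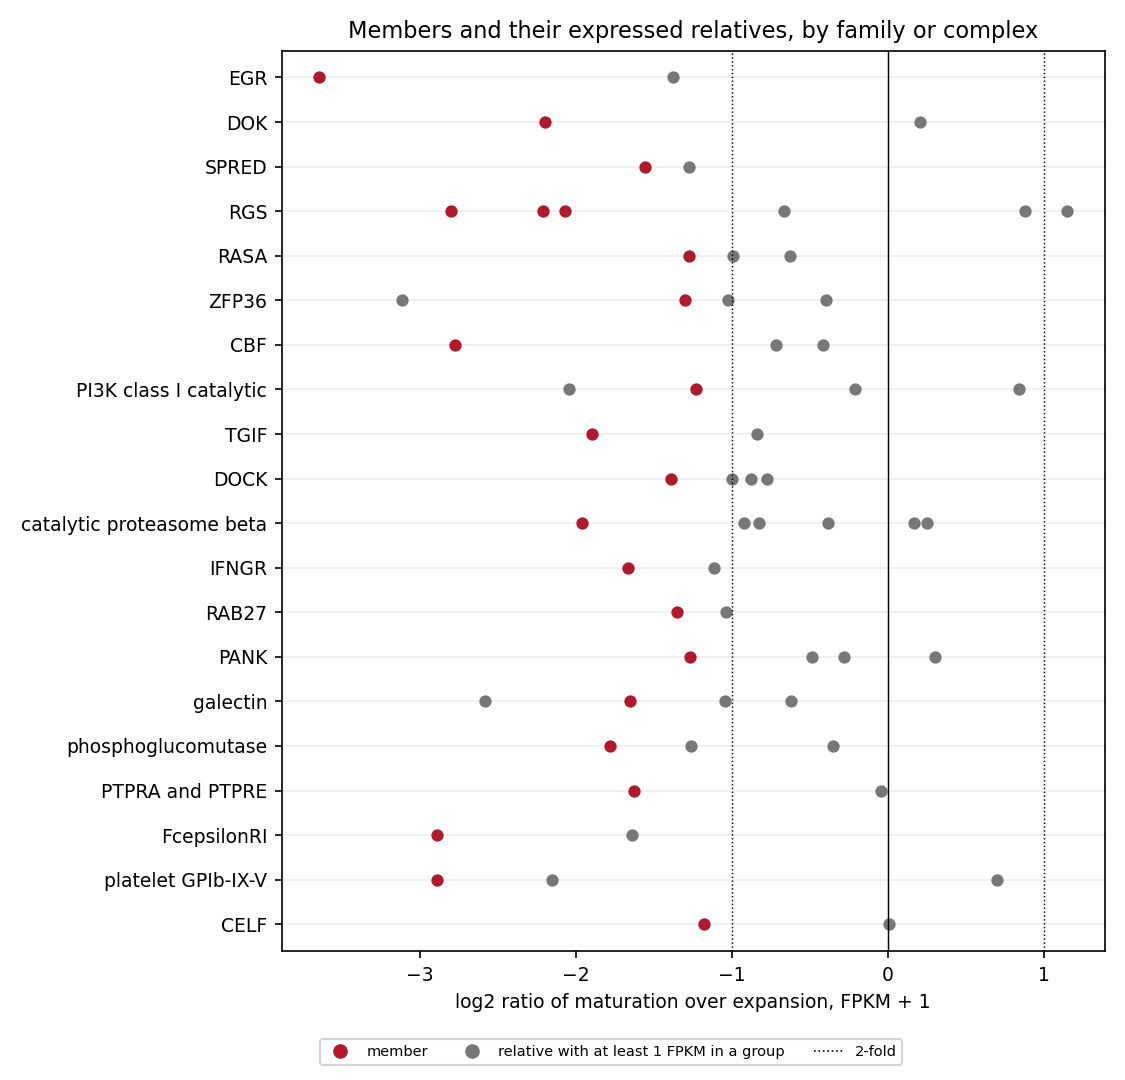
Log2 ratio of maturation over expansion (horizontal, FPKM + 1) of the chosen genes (red) and of their relatives with at least 1 FPKM in a group (grey), 1 line per family or complex, with dotted lines at 2-fold. Grey points right of the zero line are Dok1, Rgs10, Rgs12, Pik3cb, Psmb6, Psmb7, Pank4, Gp9 and Cugbp1. Zfp36l2, Lgals9 and Pik3cd lie left of the red point of their own family.

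Pathway lists place the genes in wider groups, and each count of lower and higher genes stands beside the 6.7% and 3.13% of all expressed rows. The limits make every chosen gene at least 2-fold lower in advance. Only the other genes of a list therefore add to the comparison. Of 61 genes of KIT and cytokine receptor signalling, 39 reached 1 FPKM in a group, 17 of them lower by the 2-fold measure (43.6%) and 1 higher. Dok2, Pik3cg and Ptpre were among the 17 by the choice of the set. Kit itself was at 1.40 FPKM in maturation and 16.8 in expansion and stayed above the limit, as did Csf2rb at 0.772 and 7.12 and Lyn at 1.03 and 7.82. The 1 higher gene was Cish, at 25.2 FPKM in maturation and 5.53 in expansion. The list median was -0.79. Immediate early genes had 17 expressed members, 8 lower by this measure (47.1%) and none higher. Egr1, Fosl1 and Zfp36 were among the 8 by the choice of the set. Egr3, a relative of Egr1, was at 0.0135 FPKM in maturation and 1.63 in expansion, a ratio of 121, but it lay below the expansion limit. Of 8 expressed ERK feedback genes 4 were lower, Spred2 and Rasa3 by choice, and 1 was higher. The lower ones were Spred1, Spred2, Rasa3 and Dusp6, an ERK phosphatase, at 0.0647 and 1.34 FPKM, and the higher one was Dusp1, at 7.74 and 1.997 FPKM.

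Antigen processing and interferon genes had 19 expressed members, 4 lower by the 2-fold measure (21.1%, against 6.7% of all expressed rows) and none higher. Psmb8 was among the 4 by the choice of the set. The others were the peptide transporters Tap1, at 0.660 FPKM in maturation and 2.88 in expansion, and Tap2, at 2.13 and 7.34. The last was the antiviral protein Bst2, at 5.43 and 12.7. Leukocyte cytoskeleton genes and their regulators had 24 expressed members, 10 lower (41.7%) and none higher. Both Lcp1 and Dock10 were among the 10 by the choice of the set. The list also held Rcsd1, at 0.566 FPKM in maturation and 13.9 in expansion, which missed the set by its maturation value. Stem and progenitor genes had 4 of 13 expressed members lower (30.8%) and 2 higher, and 0 of the 65 genes among them.

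Features that did not choose the genes were also compared. Genomic position was read from the loci of the table on build mm9. The 65 genes lay on 19 chromosomes. Neighbours here are the nearest rows with at least 1 FPKM in a group. Rows on a gene's own locus were passed over, such as Krr1 for Glipr1. The neighbour lay a median of 23811 bases away, against 9864 bases for the 6659 other rows. By that distance the surroundings of the set were sparser in expressed genes. Neighbours had a median log2 ratio of -0.26, against -0.25 for neighbours of the other rows. With maturation values rescaled to a median ratio of 0 over expressed rows, these became -0.036 and -0.013. At least 2-fold lower were 8 of 65 neighbours (12.3%), against 6.28% for the other rows, and 4 of the 8 were themselves chosen genes. At least 2-fold higher were 3 neighbours (4.62%, against 1.98%), among them Epb4.9, which encodes the red cell membrane protein dematin, 144227 bases from Dok2, at 11.99 FPKM in maturation and 0.0361 in expansion.

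Within 1 Mb of each other lay 7 adjacent pairs of the 65 genes. How many such pairs as many other rows would hold was not counted, so nothing is read from this number. Myadm, Tarm1 and Mboat7 lay in a row on chromosome 7, with gaps of 191 and 126 kb, and 0 of 6 expressed genes between Tarm1 and Mboat7 were at least 2-fold lower. Rgs1 and Rgs18 lay 504 kb apart on chromosome 1, and Perp and Ifngr1 735 kb apart on chromosome 10, each pair with no expressed row between. Psmb8 and Ddah2 lay 858 kb apart within the histocompatibility region of chromosome 17. Between them 8 of 22 expressed rows were at least 2-fold lower, where 6.7% of all expressed rows were. Among the 8 were Tap2 and Clic1, an intracellular chloride channel, at 22.5 FPKM in maturation and 83.0 in expansion. Trnp1 and Pafah2 on chromosome 4 had 0 of 15 expressed rows between them lower. The seventh pair was Slc28a2 and its copy Gm14085, 23.8 kb apart.

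Promoters of 300 bases, 250 before and 50 after the RefSeq start on GRCm38.p6, were found for 49 of the 65 genes and for 4982 of the other rows. The chosen genes had fewer CpG dinucleotides there than other genes expressed in these cells, and more than promoters in general. Per promoter, the median was 12 CpGs in the 77 promoters of the chosen genes, 22 in the 6285 of the other rows and 7 in all 32851 promoters of the table. The shares with 5 or fewer CpGs were 29.9% for the chosen genes, 9.05% for the other rows and 43.6% for all. Taking the promoter with most CpGs for each gene, the median was 18 in the 49 genes and 23 in the other rows. Promoters with 5 or fewer CpGs were the richest available for 11 of 49 genes (22.4%), against 4.44% of the other rows. Among them were Gp5 with 0 and Ms4a2 with 2 CpGs. The contrast was alike at matched expression: of genes at 2 to 5 FPKM in expansion, 20% of the 45 chosen ones and 3.82% of 2306 others had 5 or fewer CpGs. More of the chosen genes had several listed promoters, since 69.4% had 1 promoter against 80.7% of the other rows. Taking the highest count therefore gave the chosen genes more chances to score high. No test was made of these shares.

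**Figure D4:**
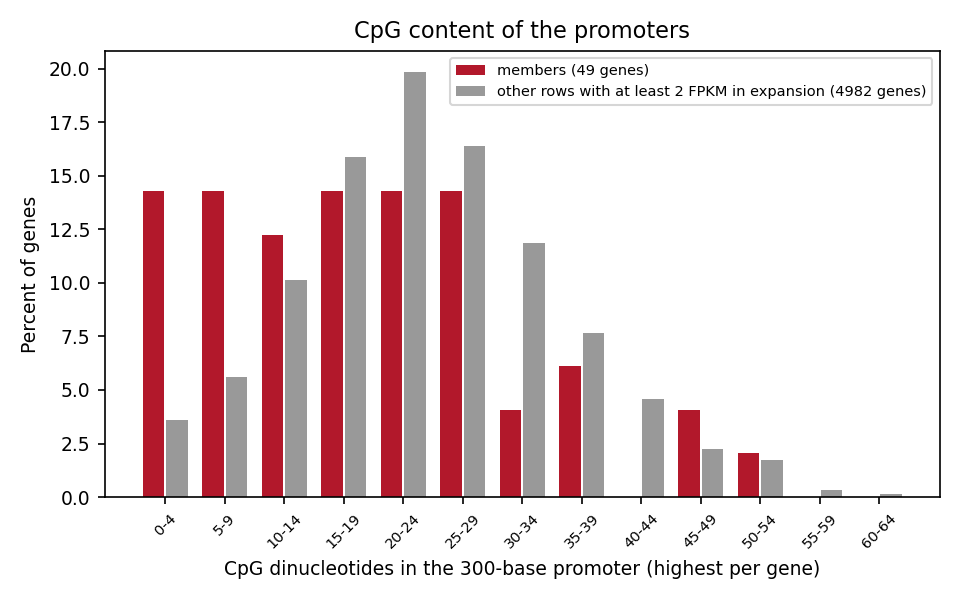
Percent of genes (vertical) by the number of CpG dinucleotides in the 300-base promoter, highest per gene (horizontal), for the 49 chosen genes (red) and 4982 other rows with at least 2 FPKM in expansion (grey). The red bars exceed the grey ones in the 3 lowest classes, and the medians are 18 and 23 CpGs.

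Motifs were searched on both strands of these promoters. Among the motifs below, the housekeeping ETS core, the E-box and the CREB motif each contain a CpG. Promoters of the chosen genes held fewer CpGs than those of the other rows, and motif shares were not compared at matched CpG content. Whether lower shares of these motifs go beyond the difference in CpGs was therefore not tested. CCGGAAG, the ETS core of many housekeeping promoters, was in 2 of 49 genes (4.08%) and in 26.5% of the other rows. CACGTG, the E-box of MYC and USF, was in 2 genes (4.08%), against 13.4%. GAGGAAGT was in 6 genes (12.2%), Cbfb, Fhl3, Pafah2, Pik3cg, Rgs19 and Spred2, against 3.59% of the other rows. Sfpi1, which encodes PU.1, a factor that binds sites of this type, was at 4.49 FPKM in maturation and 12.0 in expansion, a gene looked up after the values were seen. AGATAA was in 8 genes (16.3%), against 7.51%, and TTCNNNGAA, the STAT spacing, in 9 genes (18.4%), against 7.51%. Zfp36, Trnp1 and Myadm held a CArG box (6.12%, against 1.63%), and Srf, its binding factor, was at 1.62 FPKM in maturation and 4.54 in expansion. TGANTCA (AP-1) was in 4 genes (8.16%, against 5.28%), TGTGGT (RUNX) in 6 (12.2%, against 14.8%), CCACACCC (KLF) in 1 (2.04%, against 4.5%) and TGACGTCA (CREB) in 0, against 3.93%.

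The shares over all 32851 promoters of the table were 8.86% for CCGGAAG, 7.15% for CACGTG, 3.2% for GAGGAAGT, 11.2% for AGATAA and 8.3% for TTCNNNGAA. They were 1.63% for the CArG box, 7.81% for TGANTCA, 16.8% for TGTGGT, 3.56% for CCACACCC and 1.79% for TGACGTCA. Counted per promoter in the same way, the 77 promoters of the chosen genes held CCGGAAG in 2.6%, GAGGAAGT in 10.4% and AGATAA in 10.4%. They held TTCNNNGAA in 11.7%, the CArG box in 3.9% and CACGTG in 2.6%. In the 6285 promoters of the other rows the shares were 22.9% for CCGGAAG, 3.01% for GAGGAAGT and 6.3% for AGATAA. There they were 6.25% for TTCNNNGAA, 1.3% for the CArG box and 11.5% for CACGTG. The exact 95% binomial interval of the chosen genes' share was 4.59% to 19.4% for AGATAA, which holds the shares of both the other rows and all promoters. It was the same for GAGGAAGT and lay above both of those shares, but the 8 promoters with this motif belong to 6 genes. A count of 6 of 77 promoters, as for TGTGGT, has an interval of 2.91% to 16.2%. That interval holds both GAGGAAGT shares, 3.01% and 3.2%. It drops the repeated matches but keeps all 77 promoters, so it cannot decide whether the result rests on the repeats. Per gene the share was 12.2%, against 3.59% of the other rows. For both CCGGAAG and CACGTG the interval was 0.316% to 9.07%, which lies below the share of the other rows but holds that of all promoters. The intervals for TTCNNNGAA, 5.49% to 21%, and for the CArG box, 0.811% to 11%, hold the shares of both the other rows and all promoters. All of these intervals are per promoter, and none was computed for the shares per gene, which can read differently. They cover counting error only and treat promoters as independent, which several promoters of a gene are not. Overlapping promoters of Pik3cg and of Rgs19 count a shared match again, TGACGTCA, CACGTG and TTCNNNGAA read alike on both strands, and CCGGAAG and GAGGAAGT cannot share the same GGAA. A match is a stretch of letters and shows no binding.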

How the data were processed

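Gene expression was measured by RNA sequencing of total RNA in 2 groups of mouse ESREs. RNA was prepared with a Qiagen kit and libraries with a Bioo Scientific NextFlex kit, per the labels' protocols. Per the file headers, the authors deposited FPKM. Each group has a value per gene. The submitters' processing notes name Cuffdiff 2.0.2 and mm9. Aligner, annotation, filters, read length and any pooling: not given in the sources used here. RNA-seq levels near 0 are imprecise at an unknown depth.

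The members and the gene lists were chosen with earlier results of these data known. Role groups and families were assigned after the values were seen. Log2 ratios used a pseudocount of 1, a row counted as expressed at 1 FPKM or more in a group, and 2-fold means a log2 ratio of 1 or more or of -1 or less. With 1 value per group no test was possible. Every member could be named, as could expressed genes of a member's list or family, rows next to a member and the 5 rows nearest each limit. The values of 1 member are not reported here. Markers near 0 and Sfpi1 were named after their values were seen. Of 379 list entries 377 had a row, 3 of them through a RefSeq synonym. Of the 65 symbols 59 were RefSeq symbols and 6 were synonyms. Start positions in the table count from 0, since 190 of 190 microRNA rows spanned their RefSeq length, and are given counted from 1. Promoter sequences are from RefSeq and were not converted between builds. The selection code was run on simulated data built so that only planted genes met both limits. That run checks the code and not the effect of noise or depth. Computations used Python 3.11.15, pandas 2.3.3 and numpy 2.4.6. The alternatives tried were other limits, pseudocounts and filters, rescaled values, 1 strand, and shared loci left out.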

Additional observations from a re-analysis of the deposited data

How the results depend on the processing

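The size of the set followed its limits. It held 264 genes with a limit of 1 FPKM in expansion and 9 with one of 5, and 23 with a limit of 0.25 FPKM in maturation and 254 with one of 1. It held 50 genes, all among the 65, when maturation values were rescaled so that the median log2 ratio of expressed rows, -0.25 as deposited, was 0, 55 when rows that share a locus were left out, and 96 when no row was left out by name, an alternative added after the data were seen. The median log2 ratio of -1.77 became -3.21 with a pseudocount of 0.1, -0.64 with one of 5 and -1.70 after rescaling. The median of the neighbours, -0.26, became -0.21 with a limit of 5 FPKM, -0.11 with no filter, -0.35 with a pseudocount of 0.1 and -0.036 after rescaling, also added after the data were seen, where neighbours of the other rows had -0.013. Of the listed genes 59 were at least 2-fold lower, 15 of them by the choice of the set, and 51 to 80 under the alternatives. AGATAA and GAGGAAGT were each in 10.4% of member promoters on both strands and in 3.9% on the forward strand, TGTGGT in 7.79% and 2.6%, and CCACACCC in 1.3% and 0%, since 1 strand holds fewer matches by construction. The macrophage markers had 0 genes at least 2-fold lower and 1 with a pseudocount of 0.1. The family, CpG and neighbour shares, and the motif shares of other rows, had no alternative. No paired analysis was possible because the table holds 1 value per group. The unknown depth limits every value near 0.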

Other observations

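Left out by name were 31 further rows that met both limits. They were 19 microRNA rows, 5 snoRNA rows, 6 LOC rows and Lars2. In contrast to the 65 genes, 25 of these 31 rows were listed at exactly 0 in maturation, 18 of them microRNA rows. An exact 0 in such a table can be a failed estimate, so no fold is given. Mir107 was listed at 0 FPKM in maturation and 2.31 in expansion on the locus of Pank1, one of the 65 genes. In the opposite direction 11 rows not left out by name were under 0.5 FPKM in expansion and at 2 FPKM or more in maturation, out of 5733 rows at 2 FPKM or more in maturation.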
